A study of Homo sapiens with 22 samples.

Results

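The genes described here are MAT2A, MAT2B, AHCY, MTAP, AMD1, SRM and ODC1, which carry methionine through S-adenosylmethionine to the polyamines. They were chosen by symbol from the gene table, with the level of MAT2A on day 13 (D13) already known, so every value of D13 against its neighbouring days is given as a description and was not tested. All 7 were present among the 33694 genes of the count tables, and all 7 were found in at least 5% of the cells, the filter that 12794 genes passed. Human BJ fibroblasts, an established line from foreskin, were reprogrammed in microfluidic channels by 8 transfections of mRNAs encoding POU5F1, SOX2, KLF4, MYC, LIN28 and NANOG, none of which is one of the 7 genes. Cells were taken before the first transfection (D0) and on days 3, 5, 7, 9, 11, 13 and 15. BJ cells were grown in DMEM with fetal bovine serum, the transfections were made in Pluriton, and the medium was switched to iPSBrew on day 9. D3, D5 and D7 therefore share Pluriton, the days after D9 share iPSBrew, and each comparison with D0 also crosses a change of medium. Whether the D9 cells were taken before or after the switch is not given in the sources used here, so either D9 against D7 or D11 against D9 crosses it. On each day 2 pools, A and B, were made, each from 4 chips, and both were frozen before the libraries were prepared. The transfections were made daily, at night, and the last was on day 8. Both D7 and D9 thus came shortly after a transfection, although the last of all lay between these days. None was made between D9 and D11, so D11 against D9 is the step that crosses into days without transfection. Reprogramming was run at 5% oxygen, while the oxygen for the D0 cells is not given. There was no untransfected culture of a later day, so time, medium, oxygen and the transfected mRNAs cannot be told apart.

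Methionine is joined to ATP to form S-adenosylmethionine, the methyl donor of DNA, histone and RNA methyltransferases. The catalytic subunit that does this outside the liver is MAT2A, and MAT2B is its regulatory subunit. AHCY hydrolyses S-adenosylhomocysteine, the product left after each methyl transfer. ODC1 makes putrescine from ornithine and AMD1 decarboxylates S-adenosylmethionine. SRM joins their products to form spermidine, and MTAP salvages the methylthioadenosine that this reaction leaves, returning its sulphur to methionine. Human pluripotent stem cells are known for a high demand for methionine, and ODC1 and SRM are classical targets of MYC. The MAT2A transcript is known to carry hairpins in its 3' untranslated region that METTL16, an RNA methyltransferase, binds, and through which the cell adjusts MAT2A RNA to the supply of S-adenosylmethionine.

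The 2 features of sequence that carry this background are shown first. METTL16 acts on a 9-base element within these hairpins, written TACAGAGAA or TACAGAAAA in DNA letters. Searched on the sense strand, the 3' untranslated region of the MAT2A reference transcript (gencode v44, GRCh38, plus strand, 1509 bases) held 6 such elements. Of 19559 annotated 3' untranslated regions, 868 (4.44%) held at least 1, and MAT2A was the only gene with as many as 6. The other 6 genes held 0. The elements are shown in capitals, each with 8 bases on either side.
MAT2A site 1, chr2:85543804-85543828: gcgtaggcTACAGAGAAgccttcaa
MAT2A site 2, chr2:85544591-85544615: tgatgtcaTACAGAGAAgtcacagg
MAT2A site 3, chr2:85544776-85544800: ggtgtagcTACAGAGAAaccagctt
MAT2A site 4, chr2:85544891-85544915: ggcgtaagTACAGAGAAgccatcac
MAT2A site 5, chr2:85545006-85545030: aggtgtccTACAGAAAAaccttggg
MAT2A site 6, chr2:85545114-85545138: tggtgtggTACAGAGAAgccagctt
All 6 lie in the last exon of MAT2A, a gene of 9 exons at chr2:85539168-85545281. These letters say only that the element is present, and no methylation of RNA was measured here.

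The second feature is the E-box CACGTG, the element to which MYC binds together with MAX. It was searched on both strands of the RefSeq promoter windows (GRCh38.p14, 250 bases before to 50 bases after a start site), and was found in 2548 of 35116 windows (7.26%). Among the 7 genes, SRM held 1 and a window of ODC1 held 2, while the windows of MAT2A, MAT2B, AHCY, MTAP and AMD1 held 0. MAT2B, AHCY, AMD1 and ODC1 have more than 1 window each, so a count over genes cannot be set against the share over windows. The 2 windows that hold it are printed 5' to 3' on the strand of the gene, with the E-box in capitals.
SRM, chr1:11059969-11060268, minus strand: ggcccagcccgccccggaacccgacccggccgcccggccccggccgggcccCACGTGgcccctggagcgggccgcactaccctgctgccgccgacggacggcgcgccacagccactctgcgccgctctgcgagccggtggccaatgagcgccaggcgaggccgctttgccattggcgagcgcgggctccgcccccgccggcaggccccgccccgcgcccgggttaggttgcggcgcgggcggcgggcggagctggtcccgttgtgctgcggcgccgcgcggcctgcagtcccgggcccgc
ODC1, chr2:10447963-10448262, minus strand: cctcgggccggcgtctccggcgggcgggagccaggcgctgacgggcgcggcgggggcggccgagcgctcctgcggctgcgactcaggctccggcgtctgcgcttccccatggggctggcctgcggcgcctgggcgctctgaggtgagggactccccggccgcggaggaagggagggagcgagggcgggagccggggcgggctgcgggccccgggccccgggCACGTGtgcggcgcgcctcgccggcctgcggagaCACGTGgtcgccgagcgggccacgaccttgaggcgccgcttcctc
In the SRM window the element starts 199 bases before the start site. The ODC1 elements start 29 bases before it and 6 bases after it. This ODC1 start lies inside the gene as gencode v44 gives it. Another RefSeq start of ODC1, at the gencode start of the gene (position 10448327), has a window (chr2:10448278-10448577) with 0 E-boxes. No binding was measured, and the matches are given as a description of the sequence.

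After the filter on cells, a pool held between 571 and 6142 cells and between 33181614 and 180056814 unique molecular identifiers (UMIs). Levels are given as CPM, the UMIs of a gene divided by the UMIs of all genes in a pool and scaled to 1000000. In the 16 pools the 20 somatic markers fell from 57300 CPM in pool A of D0 to 2750 CPM in pool A of D15 in sum, while the 20 developmental markers went from 90.3 to 6250 CPM, so the fibroblast label held for D0 and the mixture of cells changed from day to day. The 8 markers of neural, blood and endothelial cells lay between 2.6 and 9.96 CPM in sum. The 9 markers of mesendoderm, a cell state that pluripotent cells can enter, were at 20.4 and 21.6 CPM in sum on D9 and 232 and 168 CPM on D11. Of 42998 barcode sequences, 1185 occurred in 2 or more libraries. Pools A and B of a day could differ in depth, since a median cell held 57141 and 29973 UMIs in pools A and B of D15, 46201 and 28763 UMIs in those of D3, 80168 and 50287 UMIs in those of D7, and 54703 and 35610 UMIs in those of D13. The median share of mitochondrial UMIs was 2.67% and 4.41% in the pools of D3 and 3.55% and 5.49% in those of D13. It was 2.96% and 3.33% in those of D0 and highest in those of D15, at 5.69% and 6.22%. The part of these differences in the levels below was not tested.

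MAT2A alternated between high and low days after D7, and its pools A and B stayed close to each other throughout. On D0 it stood at 45.5 and 48.8 CPM in pools A and B. It was at 78.4 and 87.3 CPM on D3, at 90.8 and 82 CPM on D5, and at 63.2 and 69.2 CPM on D7. On D9 its level was 113 and 116 CPM, higher than in any pool of the earlier days. On D11 it was 51.7 and 60.5 CPM, below both pools of D7 and just above both pools of D0. The levels of D13, by which the genes were chosen, were 138 and 148 CPM, and those of D15 were 47 and 54.9 CPM. In the order of the day means, D13 (143 ± 6.9 CPM, SD, n = 2) was followed by D9 (115 ± 2.23 CPM), D5 and D3, D7, and then D11, D15 and D0. The pools of D5 and D3 overlapped, as did those of D11 with D15 and of D15 with D0, while each other pair of neighbours in this order did not.

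**Figure D1:**
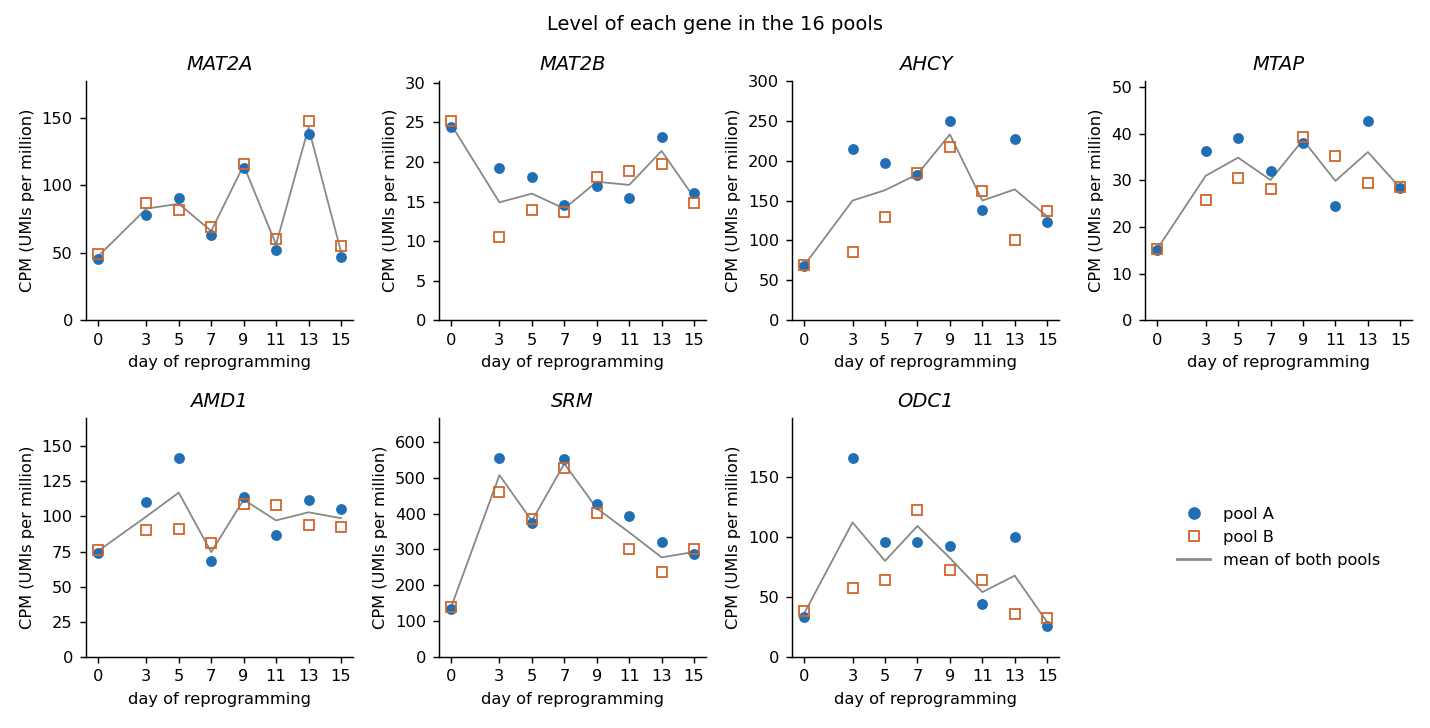
Level of each of the 7 genes (CPM, vertical axis from 0) in pool A (filled circles) and pool B (open squares) against the day of reprogramming, with a line through the mean of both pools. MAT2A peaks on D9 and again on D13 with both pools close together, whereas AHCY and ODC1 on D3 and D13 are far higher in pool A than in pool B.

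The change of MAT2A was tested on UMIs summed per pool with edgeR's quasi-likelihood test, and genes past both limits (adjusted p under 0.01, absolute log2 fold change over 0.25) were called. On D9 against D7, 1 of the 7 genes was called, MAT2A, whose log2 fold change was 0.75 (SE 0.16, adjusted p = 0.00719). In that comparison 7.37% of all genes tested were called. In the same step 15 of 20 developmental and 3 of 5 mesendoderm markers were called higher and 0 lower. Of the somatic markers 6 of 20, and of the immediate early genes 2 of 7, were called lower and 0 higher. Their part in the rise of MAT2A was not tested. Whichever of the 4 pools of D7 and D9 was left out, MAT2A missed the threshold, with log2 fold changes of 0.70 to 0.83 and adjusted p from 0.032 to 0.061. On D11 against D9, 1 of 7 was called and again it was MAT2A, which fell by 1.05 on the log2 scale (SE 0.16, adjusted p = 0.00171), against 4.09% of all genes called. Of the 5 mesendoderm markers tested, 4 rose in the same step, in which no transfection was made. The part of either in the fall of MAT2A was not tested. The median log2 fold change of the 7 genes in this step was -0.4, against 0.05 over all genes tested. All 7 had a lower day mean on D11 than on D9, although the other 6 did not pass the test. The share of all genes that were lower was not counted. MAT2B differed by only -0.06 on the log2 scale (SE 0.218). Its pool B of D11 (18.8 CPM) lay above both of its D9 pools (17 and 18.1 CPM). The D11 pools also set the size of the day 13 rise by which MAT2A was chosen, so its fall is not independent of that choice. Whichever pool of D9 or D11 was left out, it missed the threshold as well, at adjusted p from 0.012 to 0.026 and log2 fold changes of -1.12 to -0.99.

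The D13 level of MAT2A was 2.55 times that of D11, and the D15 level was 0.355 times that of D13. By the difference of log2(CPM + 1), it had rank 19 from the top of the 12794 genes on D13 against D11, and rank 12707 on D15 against D13. The day means of the other members moved less on D13. Their ratio of D13 to D11 ran from 0.801 for SRM to 1.25 for MAT2B and ODC1, at 1.06 for AMD1, 1.09 for AHCY and 1.21 for MTAP. For AHCY and ODC1 these means hide pools that went apart, since the D13 pools (227 and 101 CPM for AHCY, 99.5 and 35.6 CPM for ODC1) lay on either side of both D11 pools (138 and 162 CPM, 44.1 and 63.7 CPM). MAT2B was at 15.4 and 18.8 CPM in the pools of D11 and at 23.1 and 19.7 CPM in those of D13. From D13 to D15, ODC1 stood at 0.426 times its D13 level, and this rested mostly on pool A of D13.

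MAT2A was also followed cell by cell. Each cell was thinned to 5000 UMIs, which set the depths equal and left out 0 cells in the 16 pools. The share of cells with a MAT2A UMI was then 20.6% ± 0.707 (SD, n = 2) on D0, while D3 had 31.1% ± 1.63, D5 had 32.2% ± 1.7 and D7 had 25.1% ± 0.0707. The high days D9 and D13 had 40.4% ± 0.495 and 48.4% ± 2.4, and the low days D11 and D15 had 22.1% ± 1.77 and 21.1% ± 1.98. Before thinning, these shares were 85.1% and 80.2% in the pools of D11 and 96.3% and 95.9% in those of D13. The median cell held 43.2 and 47.5 CPM in the pools of D11, 127 and 137 CPM on D13, and 39 and 42.2 CPM on D15. The 25th percentile of the cells on D13 (76.5 and 87 CPM) was close to the 75th percentile of those on D11 (68.4 and 84.2 CPM). No cell type in these cultures is known to lack MAT2A, so free RNA could not be measured with it.

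**Figure D2:**
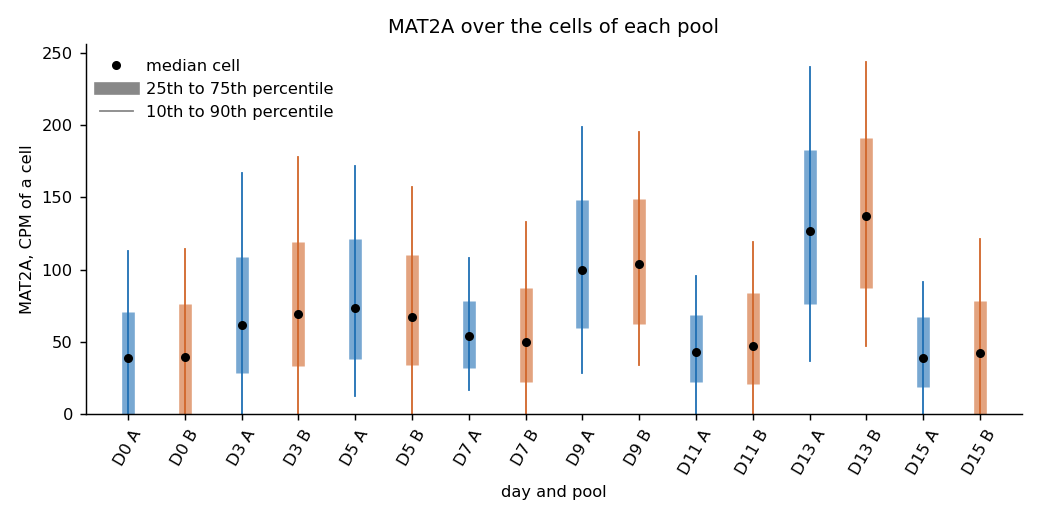
MAT2A in single cells (CPM of a cell, vertical axis from 0) for each day and pool, with the median cell as a point, the 25th to 75th percentile as a thick bar and the 10th to 90th percentile as a thin line (pool A blue, pool B orange). The median and both ends of the thick bar lie higher on D9 and D13 than on D7, D11 and D15. The D9 bars overlap those of these days, and the bar of pool A of D13 overlaps those of pool B of D11 and D15. The bar of pool B of D13 lies above all bars of D11 and D15. The lower ends also depend on the depth per cell.

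From D0 to D3, SRM, MTAP and MAT2A rose. They were 3 of the 7 members, 0 were called lower, and 25.6% of all genes were called in either direction. SRM, the spermidine synthase, was at 134 and 138 CPM on D0 and at 557 and 460 CPM on D3. Its log2 fold change was 1.86 (SE 0.179, adjusted p = 1.44e-05), and it was called whichever of the 4 pools was left out. MTAP was at 15.1 and 15.3 CPM on D0 and at 36.4 and 25.7 CPM on D3, a log2 fold change of 0.99 (SE 0.201, adjusted p = 0.00213). MAT2A had a log2 fold change of 0.78 (SE 0.16, adjusted p = 0.00211). In each of these 3 genes both pools of D3 lay above both pools of D0. Other lists moved in the same comparison: 6 of 7 immediate early genes were called lower (median log2 fold change -1.94), and 3 of 6 heat shock genes (0.58) and 3 of 8 proliferation genes (0.82) higher, and their part in these rises was not tested. Leaving out either D0 pool, MAT2A and MTAP missed the threshold at adjusted p from 0.02 to 0.024, and so did MAT2A without pool B of D3 (adjusted p = 0.015) and MTAP without pool A of D3 (adjusted p = 0.017).

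The other 4 members missed the threshold on D3, and in 3 of them pools A and B disagreed. ODC1, the first enzyme of polyamine synthesis, was at 33 and 38.3 CPM on D0 and at 166 and 57.7 CPM on D3. AHCY was at 67.3 and 69 CPM on D0 and at 215 and 85.7 CPM on D3. For both genes the pools of the 2 days did not overlap, with log2 fold changes of 1.59 (SE 0.446, adjusted p = 0.0134) and 1.08 (SE 0.355, adjusted p = 0.0283). Both changes depended on the D3 pool. Without pool B of D3 both genes were called, ODC1 at a log2 fold change of 2.13 (adjusted p = 0.0017) and AHCY at 1.57 (adjusted p = 0.0021), whereas without pool A they were at 0.72 (adjusted p = 0.19) and 0.35 (adjusted p = 0.41). MAT2B was the only member that lay lower on D3, at 24.4 and 25.2 CPM on D0 and 19.3 and 10.5 CPM on D3, a log2 difference of -0.78 (adjusted p = 0.0133). Without pool A of D3 it was called at a log2 fold change of -1.21 (adjusted p = 0.00095), and without pool B it was at -0.45 (adjusted p = 0.082). AMD1 was at 74.2 and 76.1 CPM on D0 and at 110 and 90.1 CPM on D3, and its log2 fold change of 0.37 had an adjusted p of 0.117.

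**Figure D3:**
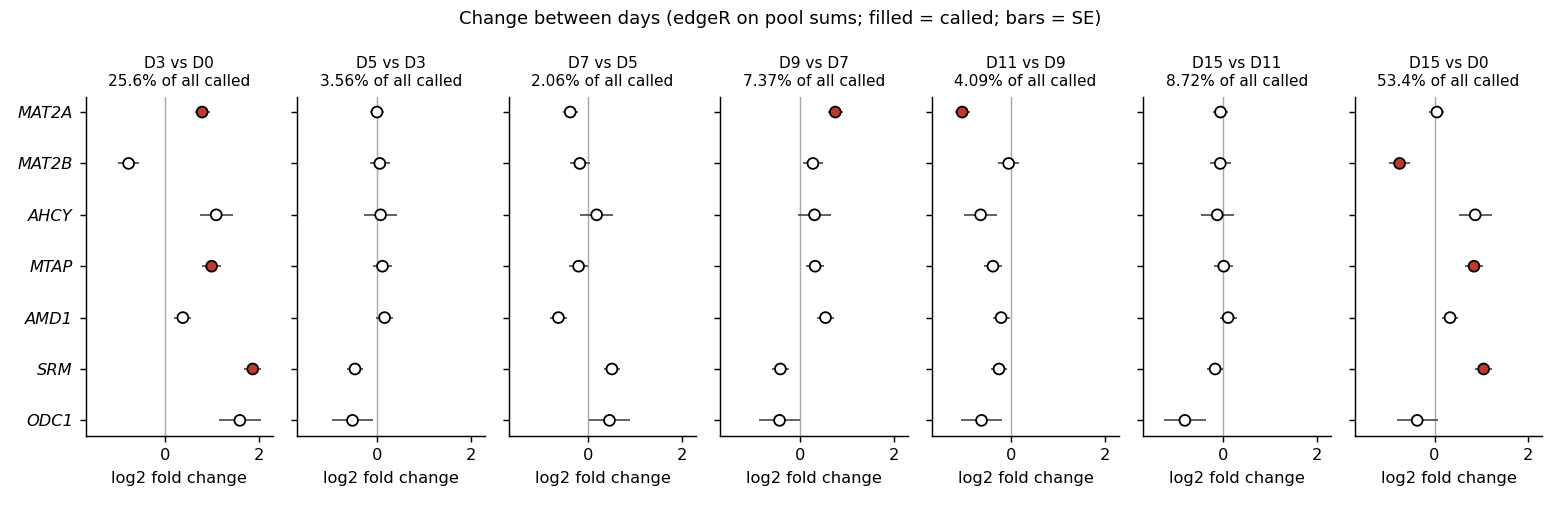
Log2 fold change of the 7 genes between days (horizontal axis, points with SE bars from edgeR on pool sums), in 1 panel per comparison, with filled points for genes called and the share of all genes called above each panel. Filled points are MAT2A, MTAP and SRM on D3 against D0, MAT2A on D9 against D7 and D11 against D9, and MAT2B, MTAP and SRM on D15 against D0.

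Between D3 and D7 no member passed the test. On D5 against D3, edgeR called 0 of 7 members at the threshold and 1 had an unadjusted p under 0.05 (SRM), while 3.56% of all genes were called. On D7 against D5 it called 0 of 7 and 3 had an unadjusted p under 0.05, while 2.06% of all genes were called. These 3 were MAT2A at -0.39, AMD1 at -0.64 and SRM at 0.50 on the log2 scale, with adjusted p of 0.244, 0.0705 and 0.155. DESeq2 also called 0 of 7 in both comparisons. AMD1 on D5 stood at 142 CPM in pool A and 91.2 CPM in pool B, which overlapped with neither pool of D7 (68 and 81.1 CPM). SRM reached its highest mean on D7, at 553 and 527 CPM, after 374 and 385 CPM on D5.

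D15 was not tested against D9, and the levels of the members from D9 to D15 are given as a description. SRM was at 427 and 402 CPM on D9 and 395 and 300 CPM on D11, while D13 had 321 and 236 CPM and D15 had 287 and 300 CPM, and none of the tested steps was called. ODC1 was at 92.1 and 72.5 CPM on D9 and at 25.4 and 32.2 CPM on D15, its lowest day mean and below both pools of D0. AHCY had its highest mean on D9, at 250 and 217 CPM. It lay at 138 and 162 CPM on D11, at 227 and 101 CPM on D13 and at 123 and 137 CPM on D15. MTAP kept between 24.6 and 42.8 CPM in the pools of these 4 days. AMD1 stayed between 87 and 114 CPM, and MAT2B between 14.8 and 23.1 CPM.

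On D15 against D11, edgeR called 0 of 7 members, 0 had an unadjusted p under 0.05, and DESeq2 called 0, while 8.72% of all genes were called. MAT2A differed by -0.05 (SE 0.159) on the log2 scale between these days. On D15 against D0, 2 members were called higher and 1 lower, against 53.4% of all genes called. In the same comparison 7 of 7 immediate early genes were called lower. Of 20 somatic markers 17 were called lower and 1 higher. The part of these lists in the changes of the members was not tested. SRM was higher by 1.05 on the log2 scale (SE 0.175, adjusted p = 1.9e-04) and MTAP by 0.84 (SE 0.201, adjusted p = 0.00267). MAT2B was lower, with a log2 fold change of -0.75 (SE 0.22, adjusted p = 0.00988), at 16.1 and 14.8 CPM on D15 against 24.4 and 25.2 CPM on D0. SRM was called whichever of the 4 pools was left out, whereas MTAP (adjusted p from 0.014 to 0.023) and MAT2B (adjusted p from 0.038 to 0.063) were lost without each of them. AHCY was at 123 and 137 CPM on D15, above both pools of D0, but missed the threshold at an adjusted p of 0.0465. In a fit of only the 4 pools of D0 and D15 it was called (log2 fold change 0.85, adjusted p = 9.2e-05), but so were 74% of all genes. For MAT2A the difference of D15 from D0 was 0.05 (SE 0.159), with an adjusted p of 0.796.

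How far pools A and B can be trusted differed from gene to gene. The ratio of the higher to the lower aliquot of a same pool, available for 6 pools, ran from 1.01 to 1.27 for MAT2A and from 1.01 to 1.25 for SRM. For AHCY it ran from 1.26 to 2.03, for MTAP from 1.03 to 2, and for ODC1 from 1.11 to 1.7. For MAT2B it ran from 1.14 to 1.64 and for AMD1 from 1.01 to 1.28. In pool A of D5, for example, the aliquots held AHCY at 220 and 109 CPM and MAT2A at 92.5 and 84.2 CPM. Each pool of D0, D3, D13 and D15 was a single library. AHCY was at 67.3 and 69 CPM in pools A and B of D0 and at 123 and 137 CPM in those of D15. It was at 215 and 85.7 CPM in those of D3 and at 227 and 101 CPM in those of D13. MAT2A was at 138 and 148 CPM on D13. The summed level of 6 amino acid carriers differed in the same direction as AHCY on D3 and D13, at 733 and 340 CPM on D13 and at 390 and 262 CPM on D3. The 10 genes of the amino acid stress response stood at 714 and 393 CPM in the pools of D13. Their part in the difference between the pools was not tested.

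From D9 onwards the cells of each pool were split by their developmental and somatic markers. A cell was put in the developmental-marker range if its UMIs of 20 developmental markers, each sum raised by 1, exceeded those of 20 somatic markers, and in the somatic-marker range if they were fewer. These ranges are cuts along a score and not cell types. The developmental-marker range held 31.9% and 34.2% of the cells in the pools of D9 and 28.1% and 44.7% in those of D11. It held 57.1% and 67.7% in the pools of D13 and 86.3% and 82.5% in those of D15. Between 21 and 1234 cells of each of these 8 pools lay within 1 log2 unit of the cut. Both ranges of 8 pools were compared with the pool as a block, and 5 of the 7 members were called higher in the developmental-marker range and 0 lower. Of all genes tested, 32.4% were called higher there.

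The members called were MAT2A, MAT2B, AHCY, MTAP and AMD1. MAT2A was higher in the developmental-marker range by 0.67 on the log2 scale (SE 0.066, adjusted p = 1.23e-05), in 8 of 8 pools. AHCY was higher by 0.72 (SE 0.103, adjusted p = 1.18e-04) and MAT2B by 0.61 (SE 0.072, adjusted p = 3.36e-05), each in 8 of 8 pools. AMD1 was higher by 0.69 (SE 0.056, adjusted p = 5.27e-06) and MTAP by 0.52 (SE 0.082, adjusted p = 2.19e-04), also in 8 of 8 pools. SRM and ODC1, the enzymes on either side of putrescine, were not called between the ranges. Their log2 differences were 0.14 (SE 0.042, adjusted p = 0.0108) and 0.10 (SE 0.121, adjusted p = 0.488), and they were higher in the developmental-marker range in 6 and 4 of 8 pools. The mean of ODC1 covers pools that went opposite ways, with log2 differences from -0.46 to 0.63. All 5 calls were kept whichever pool or day was left out, and also when cells within 1 log2 unit of the cut were left out. In that case MAT2B was higher in 7 of 8 pools, the exception being pool A of D11 (10.87 against 14.05 CPM), where 10 cells of the developmental-marker range remained. Of the 8 proliferation genes of a further list, 8 were also called higher in the developmental-marker range, with a median log2 difference of 1.01 against 0.01 over all genes. Further lists differed as well, with 4 of 6 heat shock genes called higher there, and 6 of 7 immediate early genes (median -1.41) and 3 of 5 mesendoderm markers (median -1.74) called lower. The part of these lists in the differences of the members was not tested.

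Within each range MAT2A was higher on D9 and D13 than on D11 and D15. In the developmental-marker range it was at 134.6 and 132.6 CPM on D9 and 162 and 160.9 CPM on D13, against 66.6 and 76.2 CPM on D11 and 49.5 and 57.1 CPM on D15. In the somatic-marker range it was at 100.7 and 106.1 CPM on D9 and 97.1 and 110.8 CPM on D13, against 43.7 and 42.7 CPM on D11 and 27.1 and 40 CPM on D15. In both ranges each pool of D9 and D13 lay above each pool of D11 and D15. The D13 pools lay above the D9 pools in the developmental-marker range, whereas the pools of these days overlapped in the somatic-marker range, and this difference between the ranges was not tested. MAT2B held between 15.6 and 27.1 CPM in the developmental-marker range and between 9.62 and 15.9 CPM in the somatic-marker range of the same pools, with both D13 pools above those of D11 and D15 in the former. ODC1 was lower in the developmental-marker range on D9, at 74.2 against 102.3 CPM in pool A and 58.7 against 81 CPM in pool B.

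**Figure D4:**
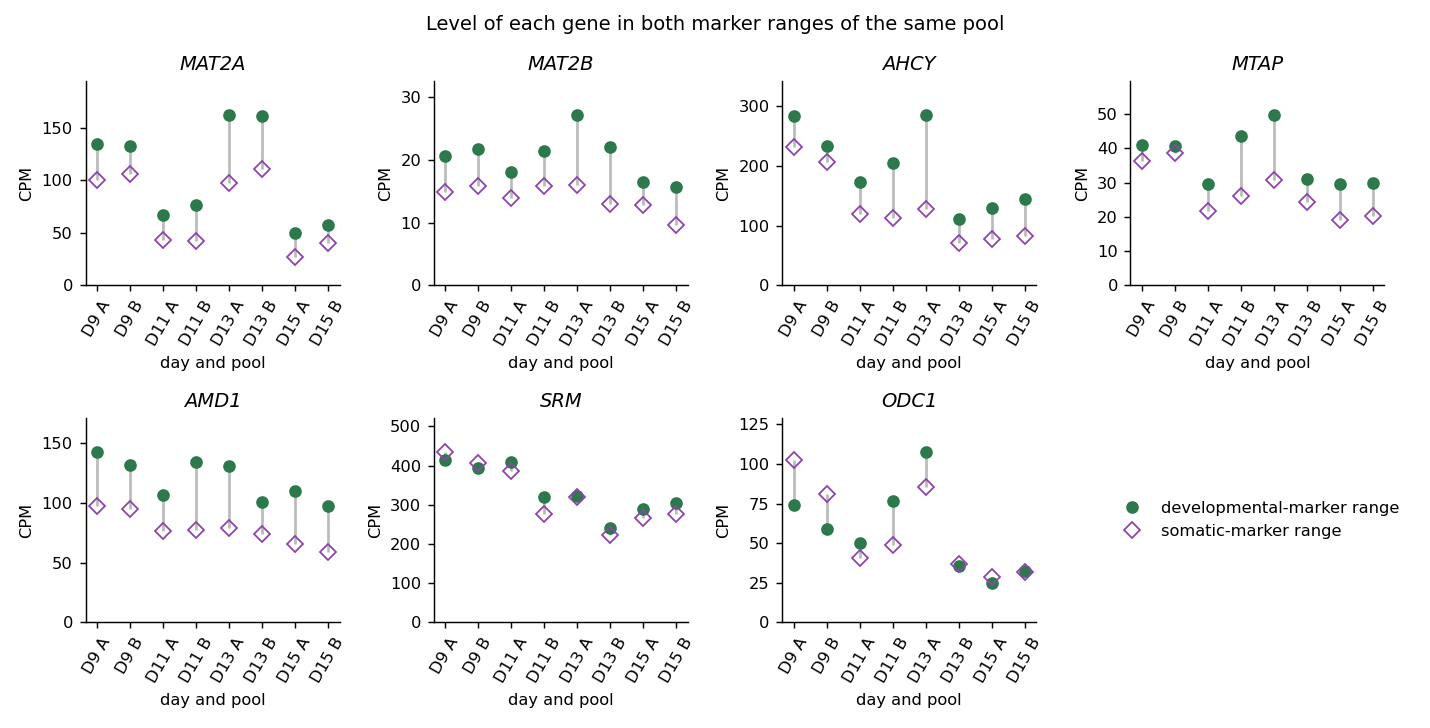
Level of the 7 genes (CPM, vertical axis from 0) in cells of the developmental-marker range (filled circles) and of the somatic-marker range (open diamonds), joined for each of the 8 pools of D9 to D15. MAT2A is higher in the developmental-marker range in 8 of 8 pools and is high in both ranges on D9 and D13, while the symbols of SRM nearly coincide.

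The genes whose levels ran most like those of each member were found by Pearson's r of log2(CPM + 1) over the 16 pools, which share days, depth and cell mixture, among 9405 genes with a mean of at least 5 CPM. For MAT2A the highest values were those of RPRD1B (0.88), TSEN15 (0.85), ORMDL1 (0.85), NCOA5 (0.84), LEPROTL1 (0.83), BRMS1L (0.82), RC3H2 (0.80), RP11-452F19.3 (0.79), TRNT1 (0.77) and SRSF3 (0.77). SRSF3, a splicing factor, had day means of 508, 846 and 580 CPM on D11, D13 and D15, and TSEN15, a subunit of the tRNA splicing endonuclease, of 30.5, 48.9 and 25.5 CPM. Each of the 10 had a smaller ratio of D13 to D11 than the 2.55 of MAT2A, but MAT2A was chosen with its D13 level known. A smaller ratio in other genes was therefore likely beforehand. AHCY ran most like KARS (0.98), CHCHD3 (0.98) and COPS7B (0.97), MTAP like NOP2, DDX20 and METTL2A (0.97 each), and SRM like SFXN4 (0.97), IMP4 (0.97) and UBE2S (0.96). ODC1 had RSAD1 (0.96), IDH3A (0.95) and UBL4A (0.94) beside it, AMD1 had GAK (0.88), NSUN2 (0.87) and COG2 (0.86), and MAT2B had PRKAG2 (0.88), SLC25A51 (0.87) and SVBP (0.87). Among the members themselves r ran from 0.90 for AHCY with MTAP to -0.69 for MAT2B with SRM, and for MAT2A it was between 0.02 with MAT2B and 0.66 with MTAP.

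The wider pathway was followed with 70 further genes in 11 lists, of which 66 passed the filter. On D3 against D0, 16 of the 66 rose and 6 fell, a share of 33.3% called beside 25.6% of all genes. The list that moved most as a whole was that of the carriers for methionine and other amino acids, of which 5 of 6 rose and 1 fell, with a median log2 fold change of 2.05 against -0.06 over all genes. SLC7A5, the light chain of the carrier that takes up methionine, was at 0.804 and 0.815 CPM on D0 and at 24.6 and 16.6 CPM on D3, a log2 fold change of 4.62 (adjusted p = 1.59e-06). SLC7A11, the cystine carrier, rose by 2.51 on the log2 scale, and SLC38A2 fell by 1.34. PSAT1, an enzyme of serine synthesis in the amino acid stress list, rose by 2.55, with pools A and B of D3 at 79.2 and 26.6 CPM. HNMT, which spends S-adenosylmethionine on histamine, fell by 1.10.

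Among the direct neighbours of the members, SMS, EIF5A and DOHH rose on D3 and SAT1 and AZIN2 fell. SMS, the spermine synthase that follows SRM, was at 71.4 and 70.3 CPM on D0 and 168 and 186 CPM on D3 (log2 fold change 1.29, adjusted p = 6.19e-04). SAT1, which acetylates spermidine and spermine for breakdown, was at 175 and 171 CPM on D0 and 79.9 and 87.4 CPM on D3 (-1.08, adjusted p = 6.49e-04). EIF5A, the protein whose hypusine is made from spermidine, and DOHH, the second enzyme of that modification, rose by 1.01 and 1.65, so 2 of the 3 genes of that list were called. Of 7 genes of polyamine breakdown and transport, 0 rose and 1 fell, and of 6 genes of polyamine synthesis and its regulators, 1 rose and 1 fell (AZIN2, by 1.56).

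Between the later days, the shares of pathway genes called lay near those of all genes or below them. On D5 against D3 and on D7 against D5 it was 1 of 66 each (1.52%, beside 3.56% and 2.06% of all genes), higher both times. On D9 against D7, 3 rose and 1 fell, 6.06% beside 7.37% of all genes. SAT1 rose by 0.93 (adjusted p = 0.00444), from 158 and 124 CPM to 280 and 273 CPM, and GAMT, the methyltransferase of creatine synthesis, fell by 1.13 (adjusted p = 3.36e-04). On D11 against D9, edgeR called 0 of 66 (4.09% of all genes), while 11 had an unadjusted p under 0.05 and DESeq2 called 4. On D15 against D11, 0 rose and 6 fell, 9.09% beside 8.72% of all genes, among them NNMT, which methylates nicotinamide (-2.05, adjusted p = 6.38e-04), SAT1 (-1.17, adjusted p = 0.00124) and HNMT (-1.16, adjusted p = 0.00165). On D15 against D0, 26 of 66 rose and 15 fell, a share of 62.1% beside 53.4% of all genes. PSAT1 rose by 3.42 and SLC7A5 by 5.73, while the log2 fold change of BHMT2 was -2.97. MYCN had 0 UMIs in both pools of D0 and was at 17 and 15.4 CPM on D15, at least 1697-fold higher when D0 is set to 3 UMIs over both pools.

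**Figure D5:**
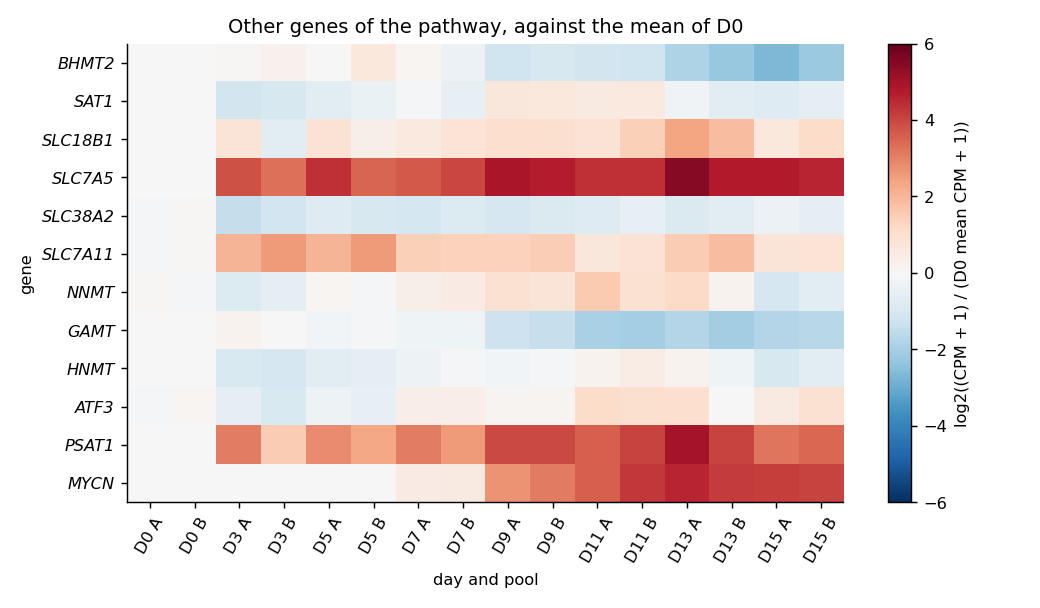
Level of the pathway genes named by the rule of largest changes in each of the 16 pools, as log2 of (CPM + 1) over the mean of D0 (CPM + 1), in colour from -6 (blue) to 6 (red). SLC7A5 and PSAT1 are high in each pool after D0, MYCN is high from D9, and BHMT2 is low on D15.

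In the marker ranges, 28 of the 66 pathway genes were called higher in the developmental-marker range and 15 lower, 65.2% in all, where 32.4% of all genes were called higher and 32.8% lower. MYCN was higher by 2.69, SLC18B1 by 1.33 and PSAT1 by 1.29 on the log2 scale (adjusted p of 3.81e-06, 9.62e-05 and 6.49e-06). NNMT was lower by 4.80, at a mean of 19.4 CPM in the developmental-marker and 338 CPM in the somatic-marker range, and ATF3 was lower by 1.44. All 4 genes listed as regulators of MAT2A RNA were higher in the developmental-marker range, METTL16 by 0.91 (SE 0.059, adjusted p = 2.72e-06). Over the days METTL16 was at 14.7 and 16.9 CPM on D11, 11.7 and 20.7 CPM on D13 and 25.7 and 24.1 CPM on D15, against 6.9 and 7.19 CPM on D0, and its pools of D11 and D13 overlapped. MYC, itself among the transfected mRNAs, was at 36.9 and 62.8 CPM on D11, 72 and 27.7 CPM on D13 and 21.5 and 23.6 CPM on D15.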

How the data were processed

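The authors made libraries with the 10x 3' v2 chemistry and counted UMIs with Cell Ranger 2.2 on hg38. The deposited values are raw counts of UMIs per gene and cell barcode, with neither normalization nor the authors' filters on cells and genes. Columns of other kinds were not used. Of 44197 barcodes, 41975 were used, those with 1000 genes or more and with mitochondrial UMIs not above 10%. The 22 libraries were added into 16 pools, 2 per day, and genes found in at least 5% of cells were tested with edgeR 4.0.16 (R 4.3.3, quasi-likelihood test, 1 fit of the 16 pools scaled by TMM, p-values adjusted after Benjamini and Hochberg over all genes tested). Comparisons of neighbouring days share pools. Both pools of a day come from the same line, so p-values measure the spread between pools, which may be technical. DESeq2 1.42.0 and the other alternatives are given in the closing section. The scripts were tested on simulated data.

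The 7 genes, the pathway lists and the markers were chosen with earlier results of these data known. Members are named in each comparison. Of the pathway lists, the up to 3 largest rises and falls that were called at 10 CPM or more in the higher group are named, as are the 10 genes most like MAT2A and the 3 most like each other member. SMS, EIF5A, DOHH, AZIN2, METTL16, MYC and MAT1A were named after their values were seen. Of the genes this rule names, 2 are not reported here. Values of genes that are not members came from the same fit. Gene positions came from gencode v44 and promoters from RefSeq. GGCX overlaps MAT2A on the opposite strand, and gencode lists 17 pseudogenes of members (6 of AHCY and 5 of AMD1), whose reads were not separated here. No doublet was removed.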

Additional observations from a re-analysis of the deposited data

Results flagged for a closer look

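The difference of ODC1 between the marker ranges took opposite directions on different days in both pools. As log2 of the developmental-marker over the somatic-marker range, its mean of 2 pools was -0.46 on D9 (-0.46 in each pool) and 0.46 on D11 (0.30 and 0.63). The difference between these days was not tested.

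SRM did the same at a smaller size. Its mean difference was -0.06 on D9 (-0.07 and -0.04), 0.14 on D11 (0.08 and 0.21), 0.06 on D13 (0.01 and 0.10) and 0.14 on D15 (0.13 and 0.14). This difference between days was not tested either. With cells within 1 log2 unit of the cut left out, SRM was at 374.4 CPM in the developmental-marker and 387.8 CPM in the somatic-marker range of pool A of D11, where 10 cells of the former remained, and at 322.6 and 324.1 CPM in pool A of D13, so on these days the direction was no longer the same in both pools.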

How the results depend on the processing

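The letters A and B did not pair the pools in the same way over all days. The correlation of their differences over 28 pairs of days ran from -0.45 to 0.82 (median 0), so some pairs of days shared them strongly. The pool letter as a replicate block called the same number of members, 3 on D3 against D0, and changed no other call of a member. For the marker ranges, where the pool is a true block, 2 members and not 5 were called with no replicate block (41.5% of all genes, beside 65.2%). On D3 against D0, where 3 members were called, DESeq2 called 6 (34.1% of all genes, beside 25.6%) and no filter on genes 5 (15%), while a fit of only the 4 pools called 0 members and 0 of all genes. On D9 against D7, where 1 was called, no filter on genes and only 4 pools each gave 0 (6.5% and 6.19% of all genes, beside 7.37%). Leaving out 1 pool at a time, the counts ran from 1 to 4 on D3 against D0, from 0 to 0 on D9 against D7 and on D11 against D9, and from 1 to 1 on D15 against D0, with fewer pools in each fit. The shares of all genes called then ran from 11.3% to 23.7%, 2.42% to 5.57%, 0.524% to 1.56% and 40.6% to 42.4%. The fits of single-pool arms take that pool to vary like the other days. A fit without both D13 pools, added after the data were seen because AHCY and ODC1 differ between them, called ODC1 on D3 against D0 (adjusted p = 0.0042) and lost MAT2B on D15 against D0 (adjusted p = 0.01). MAT2B on D15 against D0 was also lost with DESeq2 size factors (adjusted p = 0.014), and MTAP there with no filter on genes (adjusted p = 0.038).

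With no filter on genes, the median log2 change of the genes tested shifted from 0 to -0.21 on D5 against D3, from 0 to -0.2 on D15 against D11 and from 0.01 to -0.21 on D15 against D0, and 32 changes of sign occurred among the alternatives, none in a member that had been called. On D5 against D3, MAT2A was at -0.20, MAT2B at -0.16, AHCY at -0.15, MTAP at -0.10 and AMD1 at -0.05 with no filter on genes, and MAT2A was at -0.01 with DESeq2, -0.01 with its size factors and -0.04 with 4 pools. On D15 against D11, MTAP and AMD1 were at -0.19 and -0.10 with no filter on genes and at -0.005 and -0.11 with the strict filter on cells. On D15 against D0, MAT2A was at -0.17 with no filter on genes and -0.19 with the strict filter. ODC1 was at -0.04 between the ranges without day 11. Without 1 pool at a time, D5 against D3 ran from -0.13 to 0.14 for MAT2A, -0.27 to 0.49 for MAT2B, -0.40 to 0.81 for AHCY, -0.06 to 0.33 for MTAP, -0.12 to 0.40 for AMD1 and -1.06 to 0.35 for ODC1. AHCY on D7 against D5 ran from -0.05 to 0.43 and MAT2B on D11 against D9 from -0.16 to 0.03. D15 against D11 ran from -0.18 to 0.06 for MAT2A, -0.15 to 0.04 for MAT2B, -0.18 to 0.25 for MTAP and -0.39 to 0.10 for SRM, and D15 against D0 from -0.08 to 0.17 for MAT2A. The causes were not tested. Of the CPM values, 145 moved by less than the spread between pools under other weights, filters or scaling and 23 by more. All 56 shares of cells moved without thinning. Each member had at least 491 UMIs in a pool, and there were 2 pools per day. How far the depth and how far the spread between pools limit the calls was not tested.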

Other observations

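MAT1A, the liver form of the enzyme, was nearly absent from the fibroblasts and had its highest values late. It stood at 0.006 and 0.00679 CPM on D0, was listed at 0 in the pools of D3 and D5, and was at 0.294 and 0.192 CPM on D11, 0.376 and 0.395 CPM on D13 and 1.18 and 0.417 CPM on D15. It did not pass the filter on genes and was not tested.

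Over the days, MYCL was called higher on D5 against D3 (log2 fold change 1.83, adjusted p = 0.00288) and again on D9 against D7 (1.81, adjusted p = 3.86e-04). Its levels were low, at 0.17 and 0.139 CPM on D3 and 0.551 and 0.595 CPM on D5. MYCL stood at 1.2 and 1.45 CPM on D7 and 4.63 and 4.93 CPM on D9, still under the 10 CPM used for naming pathway genes. CTH, the last enzyme of transsulfuration, had a log2 fold change of 2.27 on D3 against D0 (adjusted p = 4.39e-04) and of 2.06 on D15 against D0 (adjusted p = 2.84e-04), and its levels were 20.7 and 23.5 CPM on D9, 14.7 and 7.41 CPM on D13 and 5.52 and 6.51 CPM on D15. These genes were chosen after their values were seen.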
